A study of Mus musculus with 12 samples.

Results

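Oocytes from primary follicles were compared with oocytes from primordial follicles of control mouse ovaries, across all genes and without drug. The 6 control libraries are the members, 3 labelled as oocytes from primordial follicles and 3 as oocytes from primary follicles, out of 12 libraries in all. They were chosen by their labelled stage and treatment and by no measured value. The other 6 libraries came from ovaries given dorsomorphin (DM), an inhibitor of AMPK, and serve here only as a second, separate contrast of the same stages. Every group used came from the ovaries of C57BL/6JRj x CBA/JRj F1 females aged 7 to 8 days, cultured for 5 days. The control ovaries shared exposure to the solvent DMSO. The labels call the control sham and the material in vivo, whereas the study's methods describe cultured ovaries, and the methods are followed here. Oocytes were cut by laser capture from fixed, paraffin-embedded sections stained with H&E, 200 per group, and RNA was pooled by stage, so a library is an average over oocytes of a stage. The study's figure legends call the 3 samples of a group biologically independent, with 200 pooled oocytes. Nothing in the labels ties a library to its own animal or culture, so the p-values measure only the spread between these libraries.

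A primordial follicle holds a small oocyte arrested in meiotic prophase within a layer of flat pregranulosa cells, and most such follicles stay dormant for long periods. On activation the granulosa cells become cuboidal and start to divide, and the oocyte begins to grow and to lay down its coat of zona pellucida glycoproteins. Loss of Foxo3, which PI3K signalling through Akt restrains, releases dormant follicles in mice, and p27 (Cdkn1b) and Tsc1 also hold follicles back.

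Total counts on genes were 37847705, 37082838 and 15119439 in primordial replicates 1, 2 and 3, and 34074946, 14034586 and 31112106 in primary replicates 1, 2 and 3. Where a library had 0 counts on a gene, up to 3 counts could have been missed, which is 0.0793 to 0.214 CPM (counts scaled to a library total of 1e6) and covers counting error only. Of 55401 genes, 39105 had no count in any control library and 4715 had counts in all 6. Primary replicate 3 stood apart: it had at least 10 counts on 2913 genes, against 5432 to 9333 in the other 5 libraries, and its 100 most abundant genes held 51.2% of its counts, against 24.3% to 31.4%. It is kept in every main value, and the gene counts and the gene lists with over 5 tested members are also given without it. Across the 6726 genes tested, Spearman's rho of log2(CPM + 1) was 0.331 to 0.485 within primordial pairs, 0.381 to 0.404 within primary pairs and 0.326 to 0.563 between the stages, which share depth and gene composition. The ranges within and between the stages overlapped. The median gene had 57% of its summed CPM in a single library of the 6, and 9.37% of tested genes had over 90% there.

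**Figure D1:**
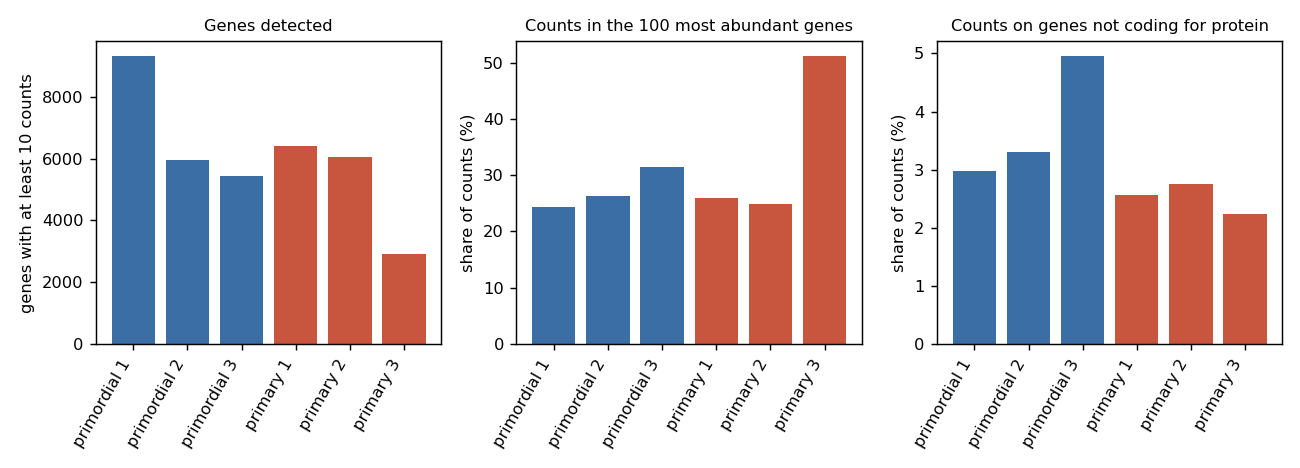
Bars give, for each of the 6 control libraries, the number of genes with at least 10 counts, the share of counts in the 100 most abundant genes (%) and the share of counts on genes that do not code for protein (%), blue for primordial and red for primary. Primary replicate 3 has the fewest genes (2913) and the highest top-gene share (51.2%), and the 3 non-coding shares of primary libraries lie below the 3 of primordial libraries.

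Genes that do not code for protein took 2.97%, 3.31% and 4.96% of counts in primordial and 2.56%, 2.75% and 2.24% in primary libraries. All 3 primary libraries lay below all 3 primordial libraries, and the difference of means was -1.23 percentage points (exact two-sided permutation p = 0.1, the smallest that 3 against 3 can give). The difference was -1.09 without primary replicate 3 and -0.62 without primordial replicate 3, the library with the highest share. The number of genes with at least 10 counts was 6906 ± 2118 in primordial and 5127 ± 1925 in primary libraries (SD, n = 3; exact permutation p = 0.6). Its difference of -1779 genes shrank to -565 without primordial replicate 1 and to -672 without primary replicate 3. The groups overlapped for that number, for the top-gene share (exact permutation p = 0.7) and for mitochondrial counts, which were 0.29% ± 0.0349 and 0.277% ± 0.136 of the total (SD, n = 3; exact permutation p = 0.9).

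No gene passed the test between the stages. edgeR called 0 of 6726 genes at an adjusted p under 0.05. Without adjustment 6.44% of the genes had a p under 0.05, 2.99% of them higher in primary (201 genes) and 3.45% lower (232 genes). DESeq2 on the same counts called 274 of 5436 genes (5.04%), 134 higher and 140 lower. In edgeR the standard error of log2 fold changes had a median of 2.82, with a biological coefficient of variation of 1.76, so a difference had to be very large to exceed the spread between replicates. Over all tested genes the log2 fold change, primary minus primordial, had a median of -0.31 with TMM scaling, -0.50 with library size alone, -0.03 with DESeq2's size factors and 0.05 with TMMwsp, and the unadjusted calls split 201 to 232, 61 to 179, 383 to 217 and 392 to 162 under these scalings. The direction of a small difference therefore depended on the scaling.

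Primary replicate 3 weighed on the higher side. It had the highest CPM of the 6 libraries in 161 of the 201 higher calls (80.1%), and in 8.21% of all tested genes. Without it, edgeR again called 0 of 8688 genes after adjustment, while 6.76% had an unadjusted p under 0.05 (1.75% higher and 5.01% lower), and DESeq2 called 772 of 7782 genes (9.92%). Of the 201 higher calls, 141 were still higher without it and 36 kept a p under 0.05. All 232 lower calls were still lower without it, and 115 kept a p under 0.05.

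**Figure D2:**
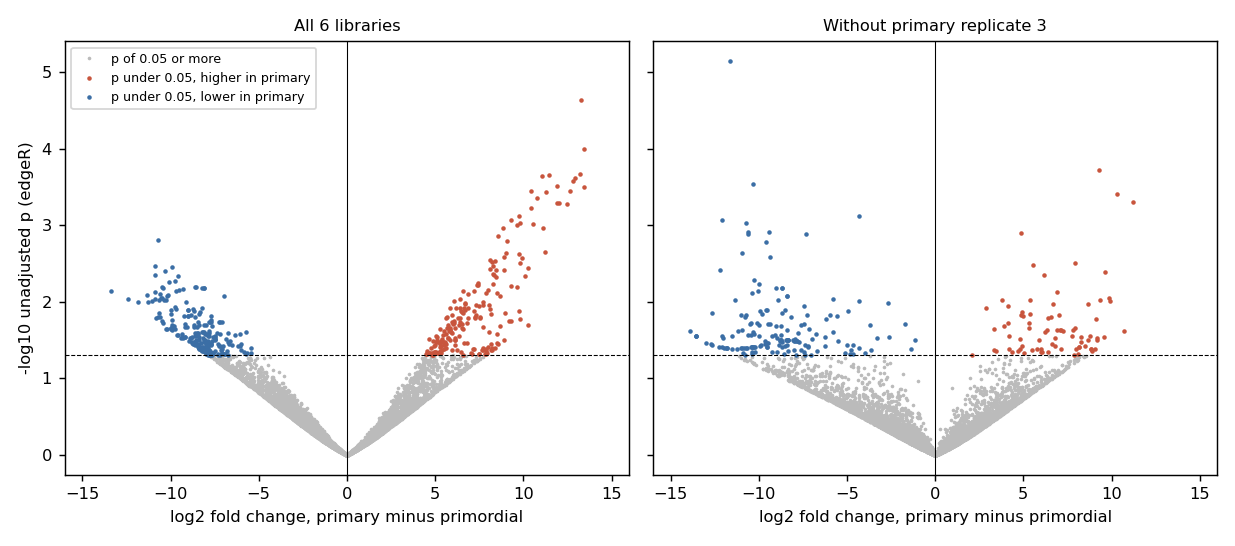
Each point is a gene, placed by its log2 fold change (primary minus primordial) and the -log10 of its unadjusted edgeR p, with all 6 libraries on the left and without primary replicate 3 on the right. Red and blue mark p under 0.05 (dashed line), higher and lower in primary. With all 6 libraries 201 points are red and 232 blue, and the points with the smallest p on the higher side thin out when primary replicate 3 is left out.

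Of the zona pellucida genes, Zp2 and Zp3 were measured at low counts in oocytes of both stages and Zp1 at high counts in some libraries of each, and none differed beyond the replicate spread. Their products form the coat of the growing oocyte. Zp2, which binds sperm in the finished coat, had 30, 89 and 40 counts in primordial and 106, 16 and 151 in primary libraries. The stages overlapped, and its log2 fold change was 2.20 ± 2.88 (SE), falling to 0.08 without primary replicate 3. Zp3, the partner with which Zp2 polymerises, had 55, 39 and 13 counts against 98, 13 and 20 (1.15 ± 2.35). Zp1, which cross-links the filaments, had 128, 4532 and 11 counts against 5772, 802 and 8 (0.61 ± 2.79). Its libraries within each stage were further apart than the stages, and the adjusted p of all 3 zona genes was above 0.9 (0.935, 0.979 and 0.986 for Zp2, Zp3 and Zp1).

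The promoter window of Zp3 is shown because zona genes are known targets of the oocyte factor Figla, which binds E-boxes as a heterodimer. It runs from 250 bases before the start of the gene to 50 bases after it (RefSeq, GRCm38.p6, chr5:135979855-135980154, plus strand), and capitals mark each match to the E-box CANNTG, a motif that reads alike on both strands.
Zp3: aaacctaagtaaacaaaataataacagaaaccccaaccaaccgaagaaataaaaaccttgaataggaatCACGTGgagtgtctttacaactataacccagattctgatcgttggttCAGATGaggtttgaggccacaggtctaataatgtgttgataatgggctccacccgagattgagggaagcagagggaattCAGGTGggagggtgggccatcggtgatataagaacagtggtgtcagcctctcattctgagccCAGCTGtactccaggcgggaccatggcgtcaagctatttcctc
The window held 4 matches, while 72.3% of 32851 promoter windows of this length held at least 1. Figla itself had 10, 0 and 3 counts in primordial and 3, 31 and 0 in primary libraries and did not pass the filter on low counts.

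The secreted growth factors of the oocyte were low in most libraries. Gdf9, which acts on granulosa cells from the primary stage on, had 308, 38 and 48 counts in primordial and 1095, 707 and 4 in primary libraries. It was highest in primary replicates 1 and 2 and lowest in primary replicate 3, and its log2 fold change was 2.88 ± 3.14 (adjusted p = 0.902). Its paralogue and partner Bmp15 had 0, 0 and 3 counts against 38, 6 and 0 and did not pass the filter. Zar1, a maternal-effect factor that binds RNA, had 219, 1 and 2 counts against 1061, 285 and 726. It was the only one of the growing-oocyte genes tested whose stages did not overlap in TMM-normalized CPM (5.29 ± 3.54, adjusted p = 0.802), where 1.92% of all tested genes were higher in primary without overlap.

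Of 20 growing-oocyte genes in the table, a list of zona, maternal-effect and secreted oocyte genes, 10 passed the filter. Among these 8 had a higher and 2 a lower fitted level in primary, and none had even an unadjusted p under 0.05. Their median log2 fold change was 1.37, against -0.31 over all tested genes, and it was 0.67 against -0.50 with library size alone, 3.13 against 0.05 with TMMwsp and 3.04 against -0.03 with DESeq2's size factors. With each of the latter pair 1 gene was higher at an unadjusted p under 0.05. With genes absent from a stage set at their bound, the median over 18 genes was 0.93. Leaving out primary replicate 3 gave 12 of 14 higher, with a median of 1.07 against -0.32. The summed level of the list was 45.1, 165 and 69.8 CPM in primordial and 321, 166 and 36 CPM in primary libraries, so the sums overlapped. Nlrp14, a member of the maternal NLRP family, had 19, 26 and 29 counts against 241, 27 and 14, with the high value in primary replicate 1 alone.

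**Figure D3:**
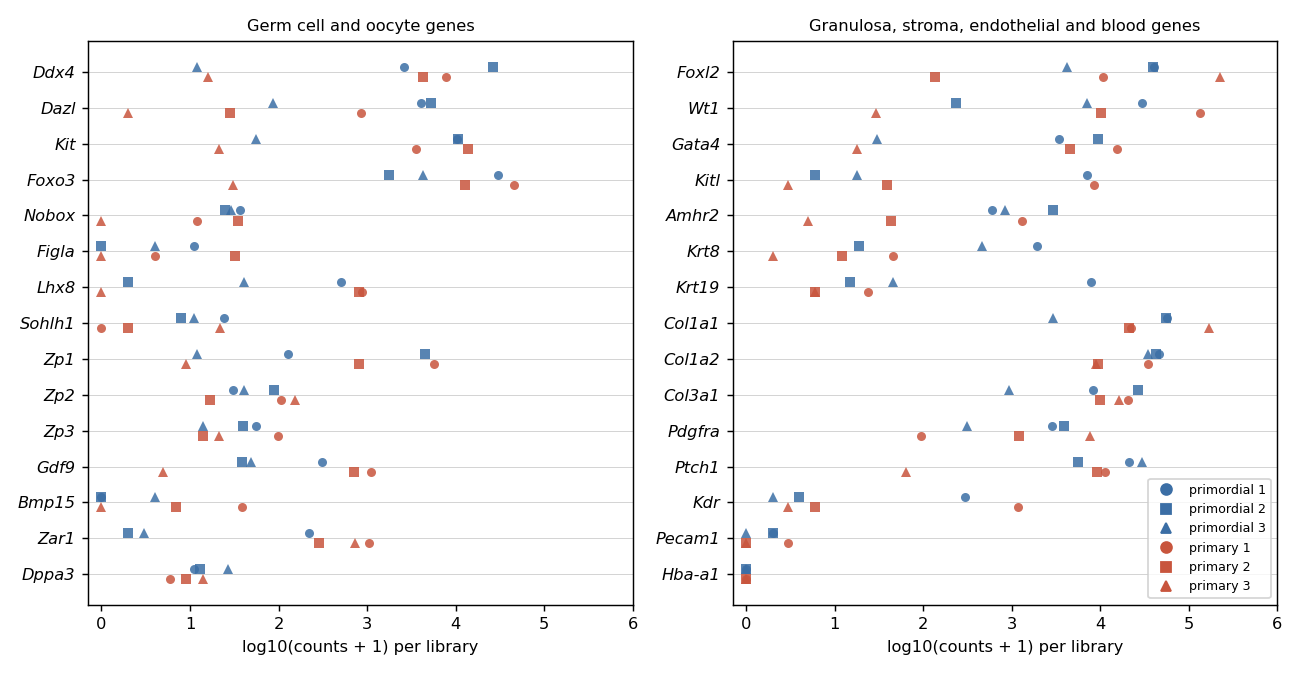
Each point is the log10(counts + 1) of a gene in 1 control library, blue for primordial and red for primary, with circles, squares and triangles for replicates 1, 2 and 3. The left panel holds germ cell and oocyte genes, the right panel genes of granulosa, stroma, endothelium and blood. Values of a gene often spread over several powers of 10 within a stage, and Hba-a1 is at 0 in all 6 libraries.

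Genes that define germ cells were present, but not in every library. Ddx4, an RNA helicase of germ cells, had 2643, 26640 and 11 counts in primordial and 7847, 4235 and 15 in primary libraries (-0.91 ± 2.39). Replicate 3 of each stage was low and the other 4 libraries were high. Kit, the receptor for Kit ligand through which granulosa cells stimulate the oocyte, was likewise low in replicate 3 of each stage, with 10382, 10635 and 54 counts against 3559, 13806 and 20 (0.71 ± 2.38). Dazl, an RNA-binding protein that promotes translation in germ cells, had 4110, 5275 and 86 counts against 861, 27 and 1 (-3.12 ± 3.11). Dppa3, a maternal protein that protects DNA methylation after fertilisation, had between 5 and 26 counts in each library (0.19 ± 2.12, and -1.03 with library size alone). The libraries labelled replicate 3 thus held little of Ddx4, Kit and Dazl, though Dazl was also low in primary replicate 2. The germ cell identity list as a whole did not show this in primordial libraries. Its summed level was 1840, 2812 and 2909 CPM in primordial and 3143, 2538 and 1301 CPM in primary libraries.

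Other germ cell transcripts kept to a different pattern. Cpeb1, which controls translation of stored maternal mRNA, had 6225, 16614 and 5416 counts in primordial and 11951, 3110 and 28945 in primary libraries, high in all 6. Its log2 fold change was 2.34 ± 2.23 with all libraries and -0.28 without primary replicate 3. Elavl2, an RNA-binding protein of oocytes and neurons, had 15465, 14 and 9151 counts against 2730, 1368 and 13 (-2.45 ± 2.57). Of 17 germ cell identity genes, 13 passed the filter, 6 with a higher and 7 with a lower fitted level in primary, none at an unadjusted p under 0.05, and their median was -0.74 (-0.11 with TMMwsp). The split was 3 higher to 10 lower both without primary replicate 3 (median -0.89) and with library size alone (median -1.03), so its evenness rested on that library and on the scaling.

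No transcription factor that builds the primordial follicle passed the test. Nobox, a homeobox factor of oocytes, had 36, 24 and 28 counts in primordial and 11, 34 and 0 in primary libraries (-0.54 ± 2.14). Lhx8, its LIM homeobox partner, had 509, 1 and 40 counts against 886, 804 and 0 (2.59 ± 3.10). Sohlh1, a helix-loop-helix factor of early oocytes, had 23, 7 and 10 counts against 0, 1 and 21. Its fitted log2 fold change was 1.33 ± 2.14 with all libraries, -3.88 without primary replicate 3 and -0.98 with library size alone, so its direction rested on that library and on the scaling. Stat3 was carried by the same library, with 17892, 20290 and 4357 counts against 18408, 6498 and 97224 (3.68 ± 2.23, and 0.17 without it). Of 10 genes in this list 7 passed the filter, 4 higher and 3 lower, and their median was 1.27 with TMM and -0.34 with library size alone. In the fit without primary replicate 3, 5 of 8 were higher and the median was 0.11.

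Regulators of follicle activation were measured with a wide spread within each stage. Foxo3 had 29882, 1779 and 4260 counts in primordial and 45329, 12904 and 30 in primary libraries, the extremes both lying in primary (1.27 ± 2.25, adjusted p = 0.968). Tsc1, which restrains mTORC1, had 2935, 58 and 740 counts against 253, 3 and 1 (-3.65 ± 3.28). Yap1, the Hippo pathway coactivator, had 3858, 275 and 7684 counts against 675, 1142 and 12 (-2.78 ± 2.75).

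Cdkn1b was the only gene of the dormancy and activation list whose stages did not overlap in TMM-normalized CPM, a lower level in primary that 7.63% of all tested genes also showed. It encodes p27, an inhibitor of cyclin-dependent kinases. Counts were 1268, 4402 and 665 in primordial and 301, 118 and 6 in primary libraries. The log2 fold change was -3.62 ± 3.24 (adjusted p = 0.867) and -3.13 without primary replicate 3, a difference within the replicate spread. All 24 genes of the list passed the filter, 15 with a higher and 9 with a lower fitted level, none at an unadjusted p under 0.05, and the median was 0.54 (0.44 without primary replicate 3, where 14 were higher and 10 lower). The summed level was 6840, 2702 and 6405 CPM in primordial and 6480, 9748 and 5265 CPM in primary libraries.

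Among AMPK subunits and activators the catalytic subunit Prkaa1 had 3699, 2 and 26 counts in primordial and 618, 3839 and 3 in primary libraries (1.74 ± 2.93). The regulatory subunit Prkab1 had 2965, 725 and 176 counts against 7637, 70 and 110 (1.55 ± 2.87). Stk11 (Lkb1), the kinase that activates AMPK, was high in 1 library of each stage, with 23, 2 and 2537 counts against 27, 3547 and 1. Prkag1, a regulatory subunit that did not pass the filter, had 14, 6 and 1338 counts against 2, 2 and 0. Its stages did not overlap in CPM of the library total, where 8.46% of tested genes were lower in primary without overlap. The nearest values were 0.162 CPM in primordial replicate 2 and 0.143 CPM in primary replicate 2. Both lie under the 0.214 CPM of 3 counts in the latter library, so the separation is within counting error. Cab39 (Mo25), the scaffold of the Stk11 complex, was the only 1 of 11 tested genes whose stages did not overlap in TMM-normalized CPM. Of all tested genes 7.63% were lower in primary without overlap, so Cab39 does not set the list apart. Counts of Cab39 were 4239, 5340 and 2712 in primordial and 5, 19 and 4 in primary libraries. The log2 fold change was -7.86 ± 3.70, with an unadjusted p of 0.0338 and an adjusted p of 0.749 in edgeR and 0.0238 in DESeq2, and -7.88 without primary replicate 3. Of 11 tested genes 2 were lower and 0 higher at an unadjusted p under 0.05, Cab39 and its paralogue Cab39l, for which counts were 1506, 3278 and 0 against 13, 2 and 0. Over all tested genes 3.45% were lower by this criterion. Neither gene met it without primary replicate 3 (unadjusted p = 0.0643 and 0.132), and none of the list did with library size alone. The list split 7 higher to 4 lower with a median of 0.48, and 8 to 6 with a median of 0.98 when that library was left out. The summed level of the list was 577 to 871 CPM in primordial libraries and 662 and 1091 CPM in primary replicates 1 and 2, but 6.2 CPM in primary replicate 3.

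Wnt ligands were almost absent. Of 19 genes, 14 had at most 3 counts in all 6 libraries and 2 passed the filter. Wnt4, which somatic cells of the ovary use for female development, had 903, 221 and 333 counts in primordial and 5, 0 and 1 in primary libraries. The stages did not overlap and the log2 fold change was -7.15 ± 3.74 (unadjusted p = 0.0557, adjusted p = 0.749). Wnt6 had 0, 1387 and 1032 counts against 363, 1399 and 0, a full overlap. Since Wnt4 is also a pregranulosa marker, the levels of the other granulosa genes, given further on, stand beside this value, and their part in it was not tested.

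TGF-beta family receptors and SMADs were present in both stages. Bmpr1a, a type I receptor for BMPs, had 6062, 7621 and 3378 counts in primordial and 18, 668 and 11 in primary libraries, without overlap (-3.89 ± 2.93, adjusted p = 0.836). Smad5, which transmits BMP signals, had 4790, 12306 and 8 counts against 46, 171 and 8 (-5.31 ± 3.24). Acvr2b, a type II activin receptor, had 5273, 13 and 5 counts against 17, 2 and 16. Tgfbr2, the type II TGF-beta receptor, had 16, 3 and 3 counts against 43, 4069 and 0, and its unadjusted p of 0.0353 came from primary replicate 2 alone. Without that library its log2 fold change went from 8.55 to 2.01. Of 15 tested genes 9 were higher and 6 lower, with 1 at an unadjusted p under 0.05, where 6.44% of all tested genes were, and the median was 0.85. That single call was lost with library size alone. When primary replicate 3 was left out, 12 were higher and 9 lower with a median of 0.65.

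Meiotic chromosome genes were mostly low. Of 19, 8 had at most 3 counts in all 6 libraries and 6 passed the filter. Sycp1, of the synaptonemal complex that holds homologous chromosomes together, had 13, 3 and 1 counts in primordial and 6010, 197 and 2 in primary libraries (8.89 ± 4.13, unadjusted p = 0.0314, adjusted p = 0.749 in edgeR and 0.00209 in DESeq2). Its log2 fold change was 5.32 without primary replicate 1. Its groups did not overlap in TMM-normalized CPM but overlapped in CPM of the library total. Sycp3, of the same structure, had 170, 9 and 49 counts against 2, 3845 and 3, and Msh4, a crossover factor, had 256, 1728 and 2 against 0, 12 and 1. Mlh3, which resolves crossovers, had 12, 18 and 273 counts against 0, 2 and 4329, and its log2 fold change went from 5.17 to -6.76 without primary replicate 3. High values of these genes sat in 1 or 2 libraries each. The list split 3 higher to 3 lower with a median of 1.99, and 3 to 4 with a median of -0.38 without primary replicate 3.

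Chromatin and DNA methylation factors of the oocyte were expressed at both stages. Tet3, a dioxygenase that oxidises methylcytosine, had 9369, 4215 and 5778 counts in primordial and 18125, 3589 and 21287 in primary libraries (2.58 ± 2.28). Kdm1b, a histone demethylase needed for maternal imprints, had 3022, 317 and 58 counts against 1873, 5865 and 3 (2.47 ± 2.88). Trim28, a corepressor of transposons and imprinted loci, had 7334, 200 and 106 counts against 4954, 1740 and 446 (1.13 ± 2.75). Hells, a chromatin remodeller, had 170, 56 and 4 counts against 369, 6810 and 4, the high value in primary replicate 2. Of 10 tested genes 7 were higher and 3 lower, none at an unadjusted p under 0.05, with a median of 0.95. The fit without primary replicate 3 gave 8 higher and 3 lower, with a median of 0.91.

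Markers of somatic ovarian cells were abundant in libraries of both stages. Foxl2, the transcription factor of granulosa cells, had 40701, 39034 and 4197 counts in primordial and 10775, 135 and 226837 in primary libraries. Its log2 fold change was 3.99 ± 2.15 with all libraries and -2.11 without primary replicate 3, so its direction rested on that library. Krt19 and Krt8, keratins of epithelial and pregranulosa cells, had 7776, 14 and 45 counts against 23, 5 and 5, and 1945, 18 and 461 counts against 45, 11 and 1. Of 22 granulosa markers 14 passed the filter, 10 higher and 4 lower with a median of 0.99, and the split was 7 to 7 with a median of 0.20 without primary replicate 3. Of the list, Fshr, Cyp19a1 and Hsd17b1 had at most 3 counts in all 6 libraries. The summed level of the list was 1554 to 3494 CPM in primordial and 2175 to 8879 CPM in primary libraries, the highest in primary replicate 3.

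Stromal genes varied as widely. Of 10 tested, 7 were higher and 3 lower with a median of 1.29, against 5 and 5 with a median of 0.31 when primary replicate 3 was left out. Col1a1, a fibrillar collagen chain, had 57045, 55732 and 2892 counts in primordial and 22215, 20979 and 168895 in primary libraries (3.24 ± 2.11, and -0.11 without primary replicate 3). Col3a1 had 8235, 26614 and 932 counts against 20437, 9890 and 16513 (1.83 ± 2.22, and 0.72 without that library). Ptch1, the Hedgehog receptor, ran the other way, with 21089, 5546 and 30035 counts against 11325, 9166 and 63 (-1.56 ± 2.25). Pdgfra, a receptor of stromal cells, had 2878, 3914 and 311 counts against 93, 1203 and 7589 (2.67 ± 2.51, and -0.95 without primary replicate 3). Summed over 15 stroma and theca genes the level was 4286 to 4638 CPM in primordial and 3120 to 6494 CPM in primary libraries, while Star and Cyp17a1 had at most 3 counts in all 6. Of 15 blood, endothelial and immune genes 9 had at most 3 counts in every library, among them the globins and Pecam1, and the sum was at most 37.3 CPM. No gate other than the cut under the microscope separated oocytes from neighbouring cells, and fewer cells of a type cannot be told apart from less RNA per cell. The part of somatic transcripts in the stage differences was not tested.

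**Figure D4:**
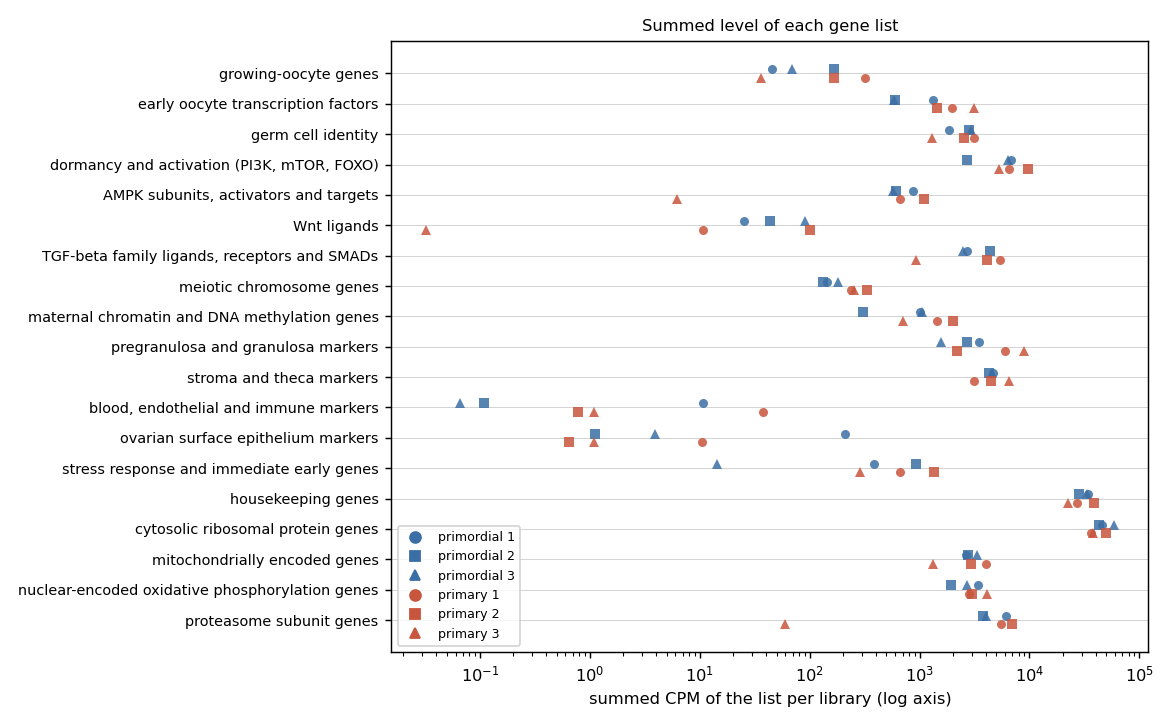
Each point is the summed CPM of a gene list in 1 control library on a log axis, blue for primordial and red for primary, with circles, squares and triangles for replicates 1, 2 and 3. Ribosomal and housekeeping sums lie close together in all 6 libraries, while primary replicate 3 stands at 59.5 CPM for proteasome subunits and 6.2 CPM for AMPK genes.

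Gene groups of the basic cell machinery did not separate the stages. Of 84 cytosolic ribosomal protein genes 80 were tested, 42 with a higher and 38 with a lower fitted level in primary and none at an unadjusted p under 0.05. Their median was 0.15 with TMM and -0.43 with library size alone (33 of 81 higher and a median of -0.32 without primary replicate 3), and their sum was 43206 to 58765 CPM in primordial and 36026 to 49708 CPM in primary libraries. In TMM-normalized CPM 8 of them were lower and 2 higher in primary without overlap, as were 7.63% and 1.92% of all tested genes. Rpl13, among the higher ones, had 3778, 796 and 1339 counts against 6490, 2824 and 26334 (4.62 ± 2.51, adjusted p = 0.749, and 1.61 without primary replicate 3).

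Genes of the respiratory chain encoded in the nucleus had a median of -0.66 over 48 tested members, and -0.21 without primary replicate 3. Ndufb7, an accessory subunit of complex I, had 80, 1195 and 122 counts in primordial and 0, 4 and 0 in primary libraries, without overlap (-7.60 ± 3.82, unadjusted p = 0.0464, adjusted p = 0.749 in edgeR and 0.0453 in DESeq2). Without primary replicate 3 the unadjusted p was 0.136. Among transcripts of the mitochondrial genome, mt-Nd5 had 84, 114 and 87 counts against 81, 26 and 288 and mt-Cytb had 91, 71 and 113 against 60, 18 and 22. The median of the 9 tested mitochondrial genes was -0.59 with TMM and -0.71 without primary replicate 3, and it turned to 1.27 with TMMwsp and 1.03 with DESeq2's size factors.

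Of 39 proteasome subunit genes 31 were tested, 12 with a higher and 19 with a lower fitted level, 1 of them at an unadjusted p under 0.05, where 6.44% of all tested genes were. The median was -0.33, and without primary replicate 3 it turned to 0.16 with 17 higher and 16 lower. The gene called was Psmd7, of the lid of the 19S particle, with 576, 60 and 17 counts in primordial and 17250, 8561 and 20 in primary libraries (6.23 ± 3.07, unadjusted p = 0.0424, adjusted p = 0.749 in edgeR and 0.0171 in DESeq2). Psmd14, the deubiquitinase of the same lid, had 3089, 15 and 5 counts against 23353, 14160 and 110 (4.74 ± 2.74). Psmb3, of the 20S core, was lower in primary without overlap, with 127, 157 and 1466 counts against 18, 0 and 0 (-7.42 ± 3.90, unadjusted p = 0.0573, DESeq2 adjusted p = 0.0473). The summed level was 3774 to 6093 CPM in primordial libraries, 5477 and 6999 CPM in primary replicates 1 and 2, and 59.5 CPM in primary replicate 3.

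Genes were next taken by how far the libraries of the stages stood apart. The stages did not overlap in TMM-normalized CPM for 9.55% of tested genes, 129 higher in primary and 513 lower. The count was 83 higher (1.23%) and 569 lower (8.46%) with CPM of the library total. Without primary replicate 3 it was 651 higher (9.68%) and 697 lower (10.4%). Fewer libraries make non-overlap easier to meet by chance, so these last counts cannot be set against those of all libraries. The genes named next were chosen by these values, as those with the smallest p or the widest gap between the stages and at least 10 counts in every library of the higher stage, so their counts are given as a description.

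Hoxc5, a homeobox transcription factor of the HoxC cluster (15:102967443-103017429, mm10), had the widest gap on the higher side. Counts were 5, 8 and 3 in primordial and 11148, 9530 and 2876 in primary libraries. Every primary library was at least 1366-fold above every primordial library in TMM-normalized CPM. This gap depends on the scaling, since primary replicate 3 had a TMM factor of 0.244. In CPM of the library total the nearest values were 92.4 in primary replicate 3 and 0.216 in primordial replicate 2, a smaller gap. Its log2 fold change was 11.22 ± 3.67 with and 11.22 without primary replicate 3, at an adjusted p of 0.531. DESeq2 gave it an adjusted p of 4.58e-08. The exons of Hoxc5 and Hoxc10 overlap on the same strand in the annotation, so the share of reads between these neighbours is uncertain.

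Fam171a1 had 6, 15 and 4 counts in primordial and 3076, 1224 and 22054 in primary libraries (12.03 ± 3.46, adjusted p = 0.22). Lamtor5, a subunit of the Ragulator that anchors mTORC1 on lysosomes, had 6, 1 and 1 counts against 1019, 151 and 15461 (13.42 ± 3.73, adjusted p = 0.205). Both were clearly present in all 3 primary libraries and close to 0 in all 3 primordial ones. Their log2 fold changes without primary replicate 3 were 8.16 and 8.15, with unadjusted p of 0.0531 and 0.0512. DESeq2 left the adjusted p of both undefined.

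Ppip5k1, a kinase of inositol pyrophosphates, had 562, 13 and 128 counts in primordial and 4780, 3596 and 2700 in primary libraries (5.33 ± 3.04). Npat, which activates histone genes at the start of S phase, had 44, 13 and 4 counts against 1343, 177 and 60 (5.35 ± 3.48, DESeq2 adjusted p = 0.0179). The separation of these genes was smaller, with gaps of 14.7-fold and 11.8-fold between the nearest libraries in TMM-normalized CPM. In CPM of the library total the nearest primary and primordial libraries had 86.8 and 14.8 CPM for Ppip5k1. For Npat they had 1.93 and 1.16 CPM.

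In the remaining genes with small p on the higher side, primary replicate 3 had by far the highest count. Mcm4, of the replicative helicase, had 4438, 61 and 30 counts against 46302, 1633 and 195077, and Atxn1l, a partner of the repressor Capicua, had 1052, 14 and 8 against 791, 584 and 100121. Rnf111 (Arkadia), a ubiquitin ligase that enhances TGF-beta signalling, had 2042, 94 and 17 counts against 3702, 3103 and 71079. The kinase Map3k10 had 794, 7 and 2 counts against 4433, 533 and 22713, and the glutamate receptor subunit Grid1 had 272, 2 and 3 against 180, 511 and 11831. Without primary replicate 3 the unadjusted p of Mcm4 was 0.015 and those of the other 4 genes were 0.239 to 0.527. Mcm4, Atxn1l and Grid1 overlapped between the stages in CPM of the library total.

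**Figure D5:**
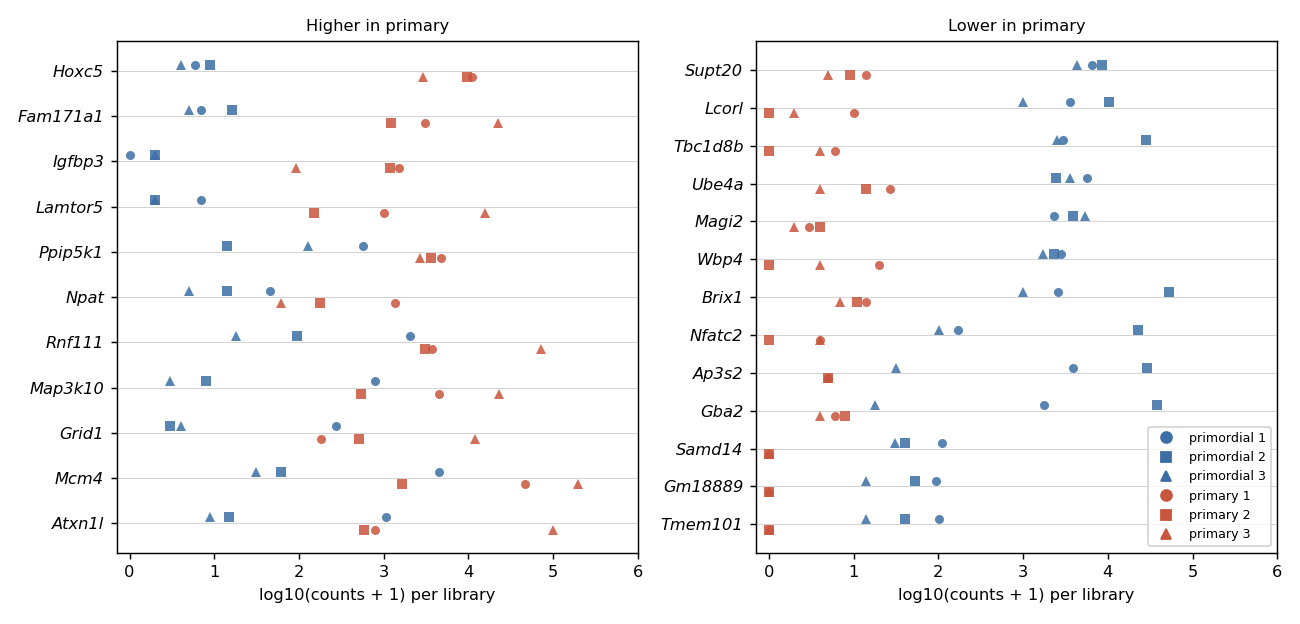
Each point is the log10(counts + 1) of a gene in 1 control library, blue for primordial and red for primary, with circles, squares and triangles for replicates 1, 2 and 3. Hoxc5 lies at 5, 8 and 3 counts in primordial and 2876 to 11148 in primary libraries, and Supt20 at 4361 to 8487 and at 4 to 13.

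On the lower side the counts of primary libraries were near 0. Supt20, of the SAGA coactivator complex, had 6588, 8487 and 4361 counts in primordial and 13, 8 and 4 in primary libraries, the widest gap on this side at 190-fold (-8.85 ± 3.63, adjusted p = 0.745). Ube4a, a ubiquitin ligase, had 5723, 2445 and 3576 counts against 26, 13 and 3 (-7.69 ± 3.68), and Wbp4, a spliceosome protein, had 2825, 2351 and 1698 against 19, 0 and 3 (-7.79 ± 3.92). Lcorl, a transcription factor known for its link with body size, had 3546, 10224 and 1011 counts against 9, 0 and 1 (-9.97 ± 4.01). The 3 primordial libraries were high for each of these genes, which follows from their choice by the widest gap. Leaving out primary replicate 3 gave log2 fold changes of -9.03 for Supt20, -7.46 for Ube4a, -7.99 for Wbp4 and -10.00 for Lcorl. The DESeq2 adjusted p was 0.00896 for Supt20, 0.0144 for Ube4a, 0.00389 for Lcorl and 0.0601 for Wbp4.

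Magi2, a scaffold protein of cell junctions, had 2315, 3897 and 5378 counts in primordial and 2, 3 and 1 in primary libraries. Its level in primary was lower by a factor of at least 1311 when each primary library was set at 3 counts (adjusted p = 0.701). Tbc1d8b, of a family that regulates Rab GTPases, had 2944, 28301 and 2493 counts against 5, 0 and 3 (-10.87 ± 3.70, adjusted p = 0.595). Brix1, a factor of ribosome assembly, had 2567, 52565 and 1011 counts against 13, 10 and 6 (-9.89 ± 3.39, adjusted p = 0.595). Primordial replicate 2 was the highest library for both, and without it the log2 fold changes were -8.63 for Tbc1d8b and -6.14 for Brix1. DESeq2 gave adjusted p of 0.000504 for Magi2, 0.0101 for Tbc1d8b and 0.00877 for Brix1.

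That library stood out further in 3 other genes. Gba2, a glucosylceramidase outside the lysosome, had 1750, 38459 and 17 counts against 5, 7 and 3, and Ap3s2, of an adaptor complex for vesicle transport, had 3850, 29429 and 31 against 4, 4 and 4. Nfatc2, a transcription factor activated by calcineurin, had 168, 22821 and 101 counts against 3, 0 and 3, at least 1573-fold lower in primary by the means of CPM. That bound rested on primordial replicate 2 and was 41.9-fold without it. Leaving the same library out gave log2 fold changes of -4.29 for Nfatc2, -5.27 for Gba2 and -6.38 for Ap3s2, in place of -10.44, -10.29 and -10.06. Samd14, Gm18889 and Tmem101 had 30 to 111, 13 to 93 and 13 to 101 counts in primordial libraries and 0 in every primary library, which is at least 15.1-fold, 11.9-fold and 11.6-fold lower with 3 counts allowed per library. Supt20, Ube4a, Wbp4, Lcorl, Ap3s2, Gba2, Map3k10, Ppip5k1, Foxl2 and Stat3 overlap a gene on the other strand, and with no strand stated for the counting such reads cannot be told apart.

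Presence in a stage and near absence from the other was asymmetric. With at least 10 counts in every library of a stage and at most 3 in every library of the other, 83 genes were present in primordial only and 2 in primary only. These numbers were 68 and 2 after every library was thinned to the lowest total count. Without primary replicate 3, the library with the fewest genes, they were 101 and 42, though fewer libraries make the criterion easier to meet. Of the 83 genes 76 code for protein, and the median of their lowest primordial count was 16. In the DM libraries 38 of the 83 had at most 3 counts in every primary library, and 2 had at least 10 in every primordial library. Only 1 of the 83 met both parts there. The share of all genes that met each part was not counted. These numbers therefore do not show whether the 83 genes differ from other genes after DM. Under DM 126 genes were present in primordial only and 5 in primary only.

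The 2 genes present in primary only were Igfbp3 and Rel. Igfbp3 (11:7206086-7213923, mm10), which binds insulin-like growth factors, had 0, 1 and 1 counts in primordial and 1506, 1169 and 90 in primary libraries. With primordial libraries set at 3 counts each it was at least 364-fold higher in primary (edgeR adjusted p = 0.749, DESeq2 adjusted p = 0.000188). Rel (11:23736847-23770970, mm10), a subunit of NF-kappaB, had 2, 0 and 0 counts against 35, 20 and 18, at least 8.45-fold higher, and was chosen after its values were seen. Both genes lie on chromosome 11, on the minus strand. Their promoter windows (RefSeq, GRCm38.p6, 250 bases before to 50 after the start) are shown because they alone met this criterion, with capitals again at CANNTG.
Igfbp3, chr11:7213874-7214173: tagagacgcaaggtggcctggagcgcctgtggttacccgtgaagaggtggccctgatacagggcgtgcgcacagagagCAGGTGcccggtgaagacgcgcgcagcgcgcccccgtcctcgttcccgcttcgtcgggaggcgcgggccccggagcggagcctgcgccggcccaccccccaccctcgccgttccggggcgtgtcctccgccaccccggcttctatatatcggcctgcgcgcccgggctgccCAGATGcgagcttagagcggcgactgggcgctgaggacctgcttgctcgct
Rel, chr11:23770920-23771219: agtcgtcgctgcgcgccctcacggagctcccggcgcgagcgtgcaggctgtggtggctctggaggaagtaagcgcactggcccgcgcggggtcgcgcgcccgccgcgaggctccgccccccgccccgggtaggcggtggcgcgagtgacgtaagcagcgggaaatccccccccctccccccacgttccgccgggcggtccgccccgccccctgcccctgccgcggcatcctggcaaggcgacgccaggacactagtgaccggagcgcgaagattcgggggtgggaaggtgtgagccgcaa
The Igfbp3 window held 2 matches and the Rel window 0, where 72.3% of all windows held at least 1.

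The transcripts that took most counts were shared by the stages. Ranked by mean CPM and not per length, Actb was first in both stages, with 695725, 428464 and 184465 counts in primordial and 474555, 288503 and 424435 in primary libraries (1.34 ± 1.79, and 0.29 without primary replicate 3). Malat1, a nuclear long non-coding RNA, had 300635, 332273 and 199531 counts against 187580, 49877 and 355540. The ribosomal RNA gene CT010467.1 had 127026, 148826 and 205113 counts against 100026, 66546 and 102206 (0.14 ± 1.89). In primordial replicate 3 it and Malat1 both exceeded Actb. The log2 fold change of Malat1 was 1.14 ± 1.83, -0.58 with library size alone and -1.15 without primary replicate 3 (unadjusted p = 0.0313). Eif4g2, a translation initiation factor, had 362832, 269329 and 128681 counts against 312624, 83514 and 151380 (0.69 ± 1.86, and -0.36 with library size alone). Hnrnph1, a splicing regulator, had 139964, 39973 and 98423 counts against 247995, 92264 and 418289 (2.92 ± 1.95).

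In all, 182 genes had at least 100 CPM in each of the 6 libraries. Their median log2 fold change was 1.84, with 167 higher and 15 lower, and it was -0.10 without primary replicate 3, whose TMM factor was 0.244 against 1.02 to 1.81 in the others. The median of the absolute log2 fold change of these genes without that library was 0.50, against 1.78 over the other tested genes. The fitted differences of abundant genes were thus smaller than those of the rest once primary replicate 3 was left out, a description over genes of unequal counting error.

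The same stages were also sampled after DM, in 6 libraries that share none with the controls. There edgeR called 0 of 4331 genes between the stages after adjustment, and 17.2% were under 0.05 before it. Of 3962 genes tested in both contrasts 50.6% had the same sign. Hoxc5 had 29238, 5657 and 5 counts in primordial and 9, 14 and 8 in primary libraries after DM. Its fitted log2 fold change there was -8.36 ± 3.99, opposite in sign to controls, but the stages overlapped in CPM of the library total. The interaction of stage and DM for Hoxc5 was -19.39 on the log2 scale, with an unadjusted p of 0.00041 and an adjusted p of 0.0974. Because Hoxc5 was chosen by its control values, which enter this test, the unadjusted p is a description only. Supt20 had 3616, 809 and 6 counts against 26, 4 and 5, and Ube4a had 2055, 1290 and 5264 against 8, 5 and 5. Of the 6 genes with the widest gap on the lower side in controls, 4 were lower without overlap after DM in CPM of the library total, namely Ube4a, Lcorl, Magi2 and Wbp4, as were 14.7% of the genes tested in controls. Primordial DM replicate 3 had few counts of 3 of these genes, with 2746, 466 and 2 against 1, 1 and 3 for Lcorl, 102, 35 and 3 against 2, 1 and 0 for Magi2, and 9917, 3305 and 4 against 4, 6 and 2 for Wbp4. For these 3 genes that library cannot be told apart from the primary ones, so only Ube4a was clearly separate. Cab39 (6653, 7 and 60 against 3, 4 and 2) and Cdkn1b (1908, 17033 and 544 against 11, 6 and 3) did not overlap after DM either. Primordial DM replicate 2 had only 7 counts of Cab39. Ndufb7 had 54, 1 and 1 counts against 0, 0 and 0, and a count of 1 cannot be told apart from 0. Zar1, Wnt4, Bmpr1a, Psmb3 and Rpl13, which did not overlap in controls, overlapped after DM. Igfbp3 had 342, 4138 and 0 counts against 8, 2455 and 5 after DM, an overlap that its control libraries did not show. Fam171a1 and Lamtor5 had at most 7 counts in every DM library. For the interaction edgeR called 0 of 8500 genes after adjustment, 18.9% were under 0.05 before it, and DESeq2 called 571.

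A few genes passed an adjusted p under 0.05 in edgeR when a single setting was changed, and were chosen after their values were seen. Cdk2ap2, a regulator of cell cycle kinases, was called with library size alone and with at least 10 counts required in every library. It had 52, 42 and 27 counts in primordial and 38, 15 and 253601 in primary libraries, so the call rested on primary replicate 3. The filter on 10 counts also called Pfkfb3, a regulator of glycolysis, with 31, 71 and 26 counts against 62, 1927 and 71517. Tsg101, of the ESCRT machinery, was called there too, with 675, 166 and 26 counts against 26, 5914 and 165560. Nr3c1, the glucocorticoid receptor, followed with 506, 27 and 24 counts against 181, 1821 and 157681. In all 4 genes primary replicate 3 was the highest library.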

How the data were processed

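The deposited values are counts of reads per gene, made by the authors from laser-captured oocytes and not normalized. RNA was amplified with the Ovation PICO system and sequenced after TruSeq RNA Access preparation. The study's methods also name the Smart-seq II method for collected oocytes. The study's methods name trim_galore 0.4.1, TopHat2, featureCounts, DESeq2 and mm10, whereas the submitters' processing notes name STAR in place of TopHat2. Amplification from little RNA, with no molecular identifiers, means that reads are not independent molecules.

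Of 55401 identifiers 55141 matched the GRCm38 annotation (GENCODE), which gave symbols and positions. Counts were tested in R 4.3.3 with edgeR 4.0.16 (filterByExpr, TMM, glmQLFit, glmQLFTest, prior count 0.125, Benjamini-Hochberg adjustment over all genes tested, threshold 0.05). Groups came from the labels, and no covariate was used. Errors after ± are standard errors of log2 fold changes unless named SD. The code was tested on simulated data. The chi-square per degree of freedom was at least 1588 between libraries of a stage, so each was counted as 1 sample. Same-numbered libraries of the stages did not deviate together (r from -0.027 to 0.0509). Alternatives were DESeq2 1.42.0, other scalings, filters and prior counts, a replicate block, all 12 libraries in 1 fit and each library left out. Library summaries used exact permutation tests (Python 3.11.15).

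The members, gene lists and marker lists were chosen with earlier results of these data known. Named genes are, in each direction, the 8 with the smallest p and the 6 with the widest gap among genes whose stages did not overlap and that had at least 10 counts in every library of the higher stage. To these were added textbook oocyte genes, AMPK and Wnt genes of the study, up to 4 further members of each list by p, and the 5 most abundant genes of each stage.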

Additional observations from a re-analysis of the deposited data

How the results depend on the processing

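With edgeR, 0 genes passed an adjusted p under 0.05 with all 6 libraries, with any library left out, with DESeq2's size factors, TMMwsp, no filter, a prior count of 2, all 12 libraries in 1 fit, or with a log2 fold change of 1 or more in size required. The exceptions were 1 gene with library size alone and 4 with at least 10 counts in every library. DESeq2 called 274. Added after the data were seen, library size alone and no primary replicate 3 together gave 1 gene, and DESeq2 without that library gave 772. An unadjusted p under 0.05 took in 433 genes. The cause of these differences was not tested.

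Genes higher at an unadjusted p under 0.05 (201) numbered 595 in DESeq2, 383 with DESeq2's size factors, 392 with TMMwsp, 61 with library size alone, 689 with no filter and 110 with at least 10 counts in every library. Leaving out a library gave 109 to 341. Without primary replicate 3 in addition, the number was 128 with library size alone, 421 with no filter and 851 in DESeq2. Genes lower (232) numbered 635 in DESeq2, 692 with no filter, 32 with at least 10 counts in every library, 492 with all 12 libraries in 1 fit and 171 to 435 with a library left out. Without primary replicate 3 in addition, it was 413 with library size alone and 1056 in DESeq2. After DM, DESeq2 called 913 genes between the stages where edgeR called 0, and 571 for the interaction where edgeR called 0. Non-overlapping genes higher in primary went from 129 to 83 with CPM of the library total and to 651 without primary replicate 3. Genes present in primary only went from 2 to 42 without that library. Both criteria are easier to meet with fewer libraries in a stage.

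The replicate numbers are shared only as numbers. With the replicate block, 10 genes were higher and 83 lower at an unadjusted p under 0.05, 0 passed the adjusted threshold, and not every library correlated best with its own number. The block reversed Ddx4 (0.87), Foxl2 (-1.08), Mlh3 (-1.41), Pdgfra (-0.55), Prkaa1 (-0.19), Sohlh1 (-1.66), Sycp3 (-2.15) and Wnt6 (0.78). Library size alone reversed Dppa3 (-1.03), Eif4g2 (-0.36), Malat1 (-0.58), Sohlh1 (-0.98) and Wnt6 (0.07). DESeq2 reversed Stk11 (-0.51) and mt-Cytb (0.78). DESeq2's size factors in edgeR reversed the same pair (-0.54 and 1.07), and TMMwsp reversed mt-Cytb (1.34). With a library left out, 25 of 91 named genes changed sign, 14 of them without primary replicate 3. Their log2 fold changes then ranged from -6.52 to 2.11 for Acvr2b, -0.40 to 14.77 for Cdk2ap2, -0.11 to 4.68 for Col1a1, -0.28 to 3.72 for Cpeb1, -1.54 to 2.80 for Ddx4, -1.31 to 1.63 for Dppa3, -0.10 to 1.83 for Eif4g2, -2.11 to 5.50 for Foxl2, -1.50 to 1.68 for Kit and -1.15 to 2.52 for Malat1. For Mlh3 the range was -6.76 to 9.19, for Nobox -2.31 to 0.05, for Pdgfra -0.95 to 4.12, for Prkaa1 -0.88 to 6.33, for Prkab1 -1.38 to 2.40, for Sohlh1 -3.88 to 2.86, for Stk11 -6.52 to 8.04, for Sycp3 -2.21 to 5.63, for Wnt6 -2.68 to 0.35, for Zp1 -1.17 to 5.71, for Egr1 -1.86 to 3.53, for Gapdh -0.76 to 3.61, for Hprt -4.07 to 6.75, for mt-Cytb -1.36 to 0.16 and for mt-Nd5 -0.85 to 3.59. The difference in the share of the 100 most abundant genes ranged from -1.82 to 11.3 percentage points and that of mitochondrial counts from -0.0759 to 0.0593, with a library left out. That of non-coding genes ranged from -1.62 to -0.62 percentage points and that of genes with at least 10 counts from -2516 to -565. Libraries of a stage differed by far more than counting error (chi-square per degree of freedom of at least 1588), and genes under 10 counts are limited by depth as well.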

Other observations

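Genes often used as references were not steady either. Gapdh, a glycolytic enzyme, had 27291, 14589 and 6496 counts in primordial and 1802, 8819 and 36822 in primary libraries. Tuba1b, an alpha-tubulin, had 35957, 40053 and 32784 counts against 79, 12617 and 46. Its primary level was below every primordial library in CPM of the library total, but the stages overlapped in TMM-normalized CPM. Hprt, of purine salvage, had 1933, 59 and 2 counts against 10379, 14 and 4. Of 16 housekeeping genes 15 were tested and 0 had an unadjusted p under 0.05. Their summed level was 27952 to 34050 CPM in primordial and 22230 to 38313 CPM in primary libraries. The list split 11 higher to 4 lower with a median of 0.47, and 6 to 9 with a median of -0.23 without primary replicate 3.

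Stress response and immediate early genes were low, with 9 of 15 at no more than 3 counts in all 6 libraries. Egr1, an immediate early transcription factor, had 312, 6716 and 1 counts in primordial and 1380, 931 and 0 in primary libraries, and Jun, of the AP-1 complex, had 497, 20 and 0 against 17, 0 and 0. Hsp90aa1, an inducible chaperone, had 13311, 27950 and 175 counts against 21174, 12835 and 8969. Of 7 markers of the ovarian surface epithelium 2 were tested, 1 higher and 1 lower, and the sum of this list was 210 CPM in primordial replicate 1 and at most 10.4 CPM in the other 5 libraries.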
